A study of Mus musculus with 12 samples.

Results

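Fatty acid oxidation and ketogenesis were described here through 35 genes, taken by their symbols from a table of 19037 genes measured in AML12 cells. All 35 were among the 13346 genes with enough reads to be tested. The products of 20 of them work in mitochondria and those of 10 in peroxisomes. The other 5 are placed elsewhere: the acyl-CoA synthetases Acsl1, Acsl3, Acsl4 and Acsl5, which sit on several membranes, and the cytosolic thioesterase Acot1.

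AML12 is an immortalised line grown from hepatocytes of a mouse that carried a growth factor transgene, and every group below was this 1 line. RNA was sequenced from cells given FK228 (romidepsin, an inhibitor of class I histone deacetylases, called HDI in the titles), from cells overexpressing what the labels call YF mutants of class I histone deacetylases, from cells given both (FK228+YF), and from control cells. Each group had 3 libraries. Descriptions of the FK228 and control samples name GFP without explaining it, and those of the groups with YF do not. The sources used here do not give doses, times or which deacetylases were mutated. Whether replicate libraries are separate cultures is not stated. The p-values therefore measure only how far these libraries differ, and part of that may be technical.

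Fatty acids are first joined to coenzyme A. Long chains then enter mitochondria through the carnitine shuttle and are shortened in a repeating spiral of dehydrogenation, hydration, a second dehydrogenation and thiolysis, and hepatocytes can turn the resulting acetyl-CoA into ketone bodies. Peroxisomes run a parallel spiral for very long, branched and bile acid side chains and hand shortened acyl groups back to mitochondria.

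Libraries held 23664446 to 26122998 estimated counts, and the first principal component took 71.1% of the variance. Levels below are CPM, counts relative to library size with TMM scaling, given as the mean ± SD of 3 libraries where no single values are given. Comparisons of levels between different genes use the deposited TPM, which is per transcript length. A gene is called at an adjusted p under 0.05 in edgeR's quasi-likelihood test, with Benjamini-Hochberg adjustment over 13346 genes, and fold changes are log2 values ± the SE of the fit. The label calls the cells hepatocytes, yet Alb, the serum albumin gene, averaged 0.0274 CPM with FK228, 0.256 with YF, 0.11 with FK228+YF and 0.0387 in control. Of 20 hepatocyte markers, 12 averaged under 1 CPM with FK228, 9 with YF, 12 with FK228+YF and 9 in control. Hnf4a, a transcription factor of hepatocytes, stood at 50.6 ± 3.31 CPM with FK228, 121 ± 5.8 with YF, 28.7 ± 1.24 with FK228+YF and 177 ± 7.5 in control.

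The pathway did not move as a block. With FK228, 16 of the 35 genes were higher and 13 lower than in control. Over all genes tested, 33.2% were called higher, 35.5% lower and 68.8% in either direction. With YF, 5 were higher and 8 lower, against 18% and 14.6% of all genes and 32.6% in either direction. With FK228+YF, 15 were higher and 12 lower, against 38.8% and 38.6% of all genes and 77.4% in either direction. The median log2 fold change of the 35 genes was 0.03 with FK228, -0.06 with YF and 0.00 with FK228+YF, and that of all genes tested was -0.02, 0.01 and 0.01. These 3 comparisons share the control libraries.

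Few members changed by at least 2-fold, and their counts are to be read against the shares of all genes. Among those lower, Bdh1 passed the count filter only through control, and the Acot2 count is uncertain, as given below. With FK228 no member was called higher by that much, against 11.1% of all genes, and 3 were lower (Acsl5, Bdh1 and Acot2), against 7.73%. With YF none was higher, against 5.61%, and Bdh1 alone was lower, against 0.832%. With FK228+YF 1 was higher (Acsl1), against 15.1%, and 6 were lower (Acsl5, Bdh1, Acox2, Acot2, Echs1 and Decr1), against 13%.

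**Figure D1:**
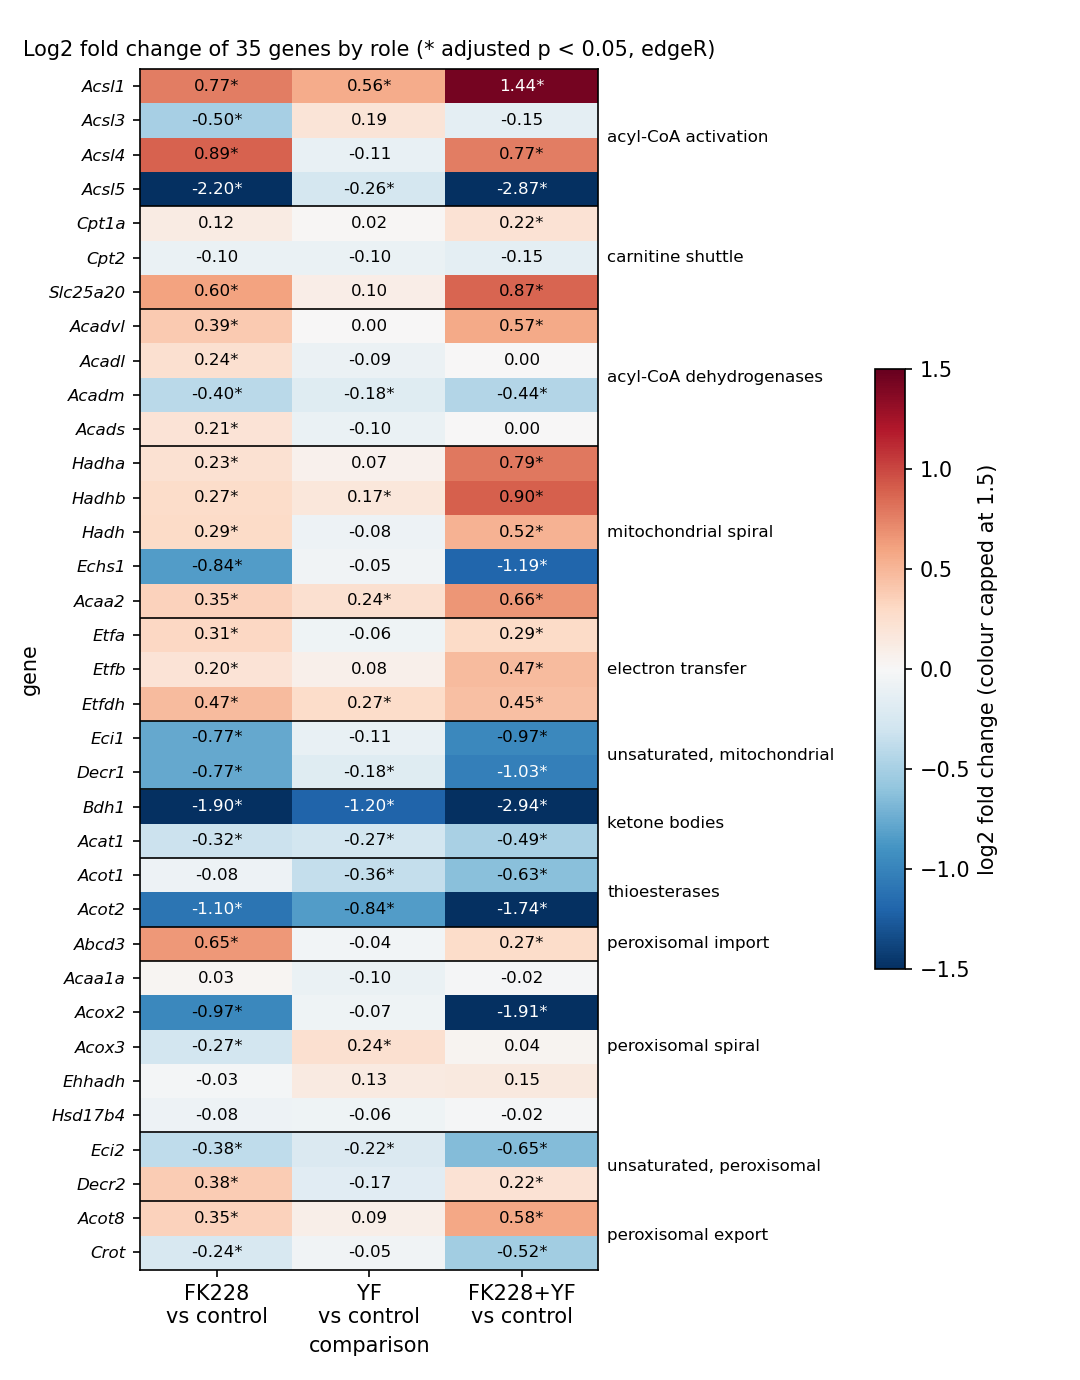
Log2 fold change of each of the 35 genes (rows, grouped by role) in FK228, YF and FK228+YF against control (columns), with an asterisk where the adjusted p was under 0.05 in edgeR; colour is capped at a log2 fold change of 1.5. Acsl1, Slc25a20, Hadha and Hadhb are red in the FK228+YF column, while Acsl5, Echs1, Eci1, Decr1, Bdh1, Acot2 and Acox2 are blue.

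Some members changed one way in every comparison with control. Hadhb, Acaa2, Etfdh and Acsl1 were higher in all 3, and Acadm, Acat1, Decr1, Eci2, Bdh1, Acot2 and Acsl5 were lower in all 3. Bdh1 passed the count filter only through the control libraries, which favours its place among the lower genes. Over all genes tested, 1734 were higher and 1389 lower in all 3, and the shared control libraries enter each of these counts. For Hadhb, Acadm, Decr1, Eci2 and Bdh1 the call with YF ended when 1 library was left out. Without control replicate 2 it ended for Acadm (-0.12), Eci2 (-0.16), Decr1 (-0.17) and Bdh1 (-0.74), so the list of genes lower in all 3 then held Acat1, Acot2 and Acsl5. The upstream sequences of 5 genes are shown because they were called in the same direction in all 3 comparisons, Hadhb and Acadm with that limit. They come from the RefSeq promoter table (GRCm38.p6) and are read 5′ to 3′ on the gene's own strand. Each was cut to the bases before the RefSeq start site that GENCODE M21 puts in no UTR. Capitals mark matches, on either strand, to the GC box GGGCGG, the CCAAT box CCAAT, the nuclear receptor motif AGGTCA or the NRF1 core, which is GCGCA followed by TGCGC.
Hadhb, chr5:30155163-30155247, plus strand: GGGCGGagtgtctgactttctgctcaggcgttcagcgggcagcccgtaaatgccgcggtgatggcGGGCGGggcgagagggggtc
Etfdh, chr3:79628864-79629017, minus strand: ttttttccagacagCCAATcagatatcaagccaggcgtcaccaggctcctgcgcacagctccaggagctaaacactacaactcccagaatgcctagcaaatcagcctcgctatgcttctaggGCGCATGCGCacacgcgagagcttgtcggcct
Acsl1, chr8:46470787-46471036, plus strand: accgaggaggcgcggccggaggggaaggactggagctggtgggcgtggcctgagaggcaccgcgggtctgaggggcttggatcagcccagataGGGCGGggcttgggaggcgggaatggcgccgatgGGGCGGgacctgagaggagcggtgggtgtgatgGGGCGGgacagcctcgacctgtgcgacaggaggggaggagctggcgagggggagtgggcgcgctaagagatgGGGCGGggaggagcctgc
Acadm, chr3:153944644-153944893, minus strand: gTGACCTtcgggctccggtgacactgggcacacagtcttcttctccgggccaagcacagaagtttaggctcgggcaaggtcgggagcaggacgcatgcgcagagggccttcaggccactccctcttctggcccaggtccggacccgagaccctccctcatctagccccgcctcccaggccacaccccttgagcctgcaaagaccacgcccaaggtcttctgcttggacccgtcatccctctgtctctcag
Acsl5, chr19:55253119-55253368, plus strand: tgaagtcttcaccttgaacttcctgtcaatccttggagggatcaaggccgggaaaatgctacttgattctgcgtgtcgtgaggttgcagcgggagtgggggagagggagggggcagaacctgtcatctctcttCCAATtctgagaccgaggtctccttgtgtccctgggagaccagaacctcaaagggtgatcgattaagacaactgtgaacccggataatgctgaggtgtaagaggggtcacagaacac

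In the full 250 bases upstream, 35 windows of 31 members could be read. They are not all separate: Abcd3, Acsl1, Acox2 and Bdh1 each gave more than 1. Windows of Hadha and Hadhb share 228 bases, so 1 GC box is counted in both. The GC box was in 21 of these 35 windows and in 32.7% of all 32851 windows in the table. The CCAAT box was in 16, against 33.8% of all, AGGTCA in 4, against 14%, and the NRF1 core in 1, that of Etfdh, against 0.782%. The E-box CACGTG, in 6.02% of all windows, was in 0 of the 35. The estrogen-related receptor element TNAAGGTCA, which contains AGGTCA, was in 0 of them and in 1.14% of all. A direct repeat of AGGTCA with 1 base between, the element that peroxisome proliferator receptors bind, was also in 0 of the 35 and in 0.0335% of all. These are matches of letters in short windows and not measured binding sites. The Acsl1 window lies before 1 of the RefSeq start sites of that gene, and the Acsl5 window lies inside the span of Acsl5.

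Acyl-CoA synthetases, which activate fatty acids, changed in opposite directions. Acsl5, on chromosome 19 from 55251861 to 55296628 (GRCm38.p6, as for all positions here), encodes a synthetase of mitochondrial and endoplasmic reticulum membranes. It stood at 63.4, 63.4 and 65.9 CPM with FK228, at 233, 268 and 239 with YF, at 43.1, 41.7 and 36.6 with FK228+YF, and at 309, 282 and 298 in control. No library of a treated group overlapped control, and the FK228+YF libraries were below those of every other group. Acsl5 fell, with log2 fold changes of -2.20 ± 0.07 with FK228 (adjusted p = 2.29e-16, edgeR), -0.26 ± 0.06 with YF (0.00315) and -2.87 ± 0.07 with FK228+YF (1.83e-18).

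Acsl1, on chromosome 8 from 46471037 to 46536051, encodes the main synthetase of liver and fat. It stood at 29.1, 29 and 32.2 CPM with FK228, at 26.2, 25.9 and 25.7 with YF, at 53.3, 45.2 and 45 with FK228+YF, and at 17.3, 17.3 and 18.3 in control. Its groups were fully separate, in the order FK228+YF, FK228, YF, control. Acsl1 rose by 0.77 ± 0.08 with FK228, 0.56 ± 0.08 with YF and 1.44 ± 0.08 with FK228+YF (adjusted p = 2.4e-08, 1.76e-05 and 3.64e-13, edgeR).

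Acsl4, on chromosome X from 142317993 to 142390802, prefers arachidonate. It stood at 317, 358 and 393 CPM with FK228, at 188, 173 and 173 with YF, at 329, 316 and 336 with FK228+YF, and at 176, 214 and 187 in control. Both groups that received FK228 were above all libraries of the others. It rose by 0.89 ± 0.08 with FK228 (adjusted p = 2.57e-09, edgeR) and by 0.77 ± 0.08 with FK228+YF (1.24e-08), and was -0.11 ± 0.08 with YF (0.296). Acsl3, an enzyme of the endoplasmic reticulum and lipid droplets, fell with FK228 (-0.50 ± 0.09, adjusted p = 8.87e-05, edgeR), with 46.7 ± 3.65 CPM there and 65.9 ± 9.44 in control. With YF it stood at 75.3 ± 5.32 CPM and with FK228+YF at 59.6 ± 4.27, and neither passed the test against control, although FK228+YF did without control replicate 2 (-0.24).

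On the TPM scale the 4 synthetase genes added up to less with FK228, and the share of each changed. Their summed level was 109, 127 and 151 TPM with FK228, 192, 196 and 187 with YF, 127, 123 and 126 with FK228+YF, and 211, 205 and 196 in control. The groups with FK228 lay below the others, and the YF range met that of control. Acsl5 made up 20.4 ± 1.16% of that sum with FK228, 58.9 ± 1.88% with YF, 13.4 ± 1.06% with FK228+YF and 64.5 ± 1.55% in control. Acsl4 made up 62 ± 1.49%, 23.6 ± 1.92% and 60.6 ± 1.56% in those 3 treated groups and 22.6 ± 2.66% in control. Acsl1 took 6.93 ± 0.283% with FK228, 4.49 ± 0.184% with YF and 11.6 ± 0.921% with FK228+YF, against 2.76 ± 0.106% in control. Acsl4 was thus the largest of the 4 in both groups with FK228, and Acsl5 in YF and control libraries.

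**Figure D2:**
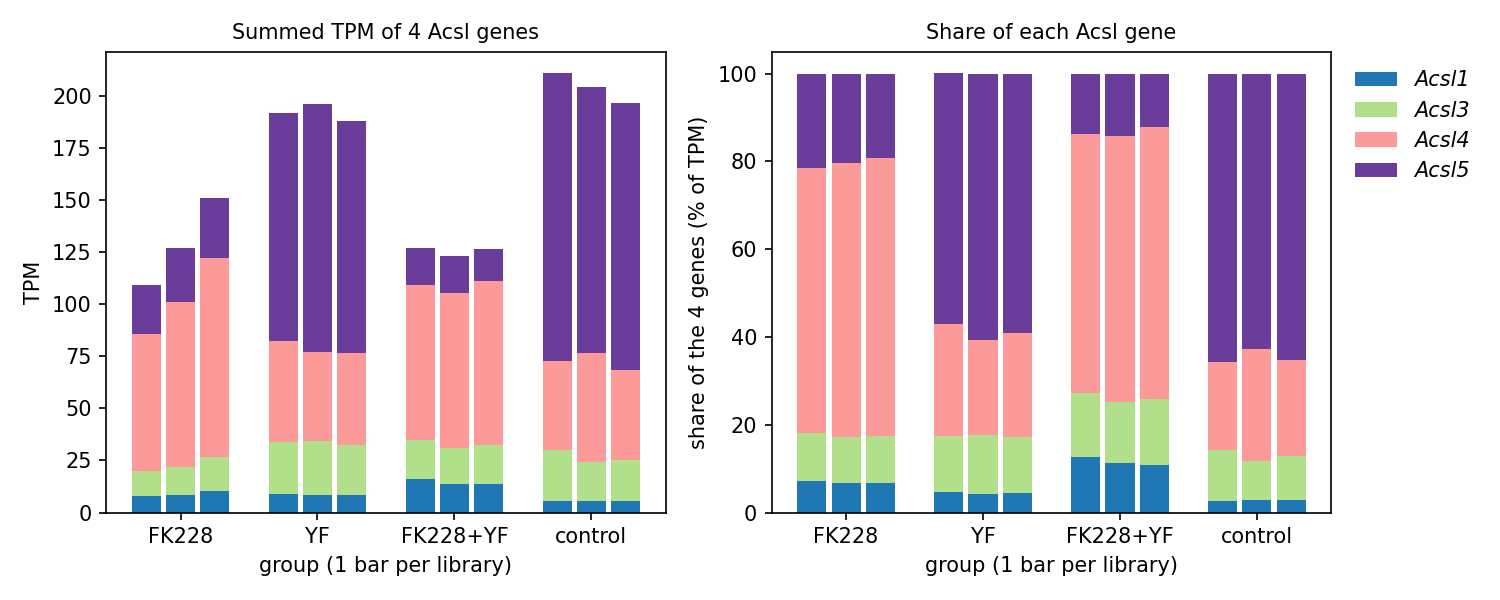
Left, summed TPM of Acsl1, Acsl3, Acsl4 and Acsl5 in each library (1 stacked bar per library, 3 per group); right, the share of each gene in that sum in percent. The Acsl5 share is between 12.2% and 21.5% in the 6 libraries with FK228 and between 57% and 65.6% in the 6 without.

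The carnitine shuttle changed mainly at its translocase. Slc25a20, on chromosome 9 from 108662136 to 108684642, encodes the carrier that exchanges acylcarnitine for carnitine across the inner membrane. It stood at 40.8, 41.4 and 45.4 CPM with FK228, at 31.1, 27.7 and 31.4 with YF, at 51, 51 and 51.5 with FK228+YF, and at 27.4, 29.6 and 26.9 in control. The FK228+YF libraries were highest, those with FK228 alone next, and YF overlapped control. It rose by 0.60 ± 0.07 with FK228 and 0.87 ± 0.07 with FK228+YF (adjusted p = 1.23e-07 and 1.96e-10, edgeR). Cpt1a, the rate-limiting entry step on the outer membrane, stood at 239, 268 and 293 CPM with FK228, at 260, 234 and 251 with YF, at 280, 277 and 300 with FK228+YF, and at 228, 285 and 223 in control. Control replicate 2 lay above 2 of the FK228+YF libraries, so those groups overlapped. Cpt1a rose by 0.22 ± 0.09 with FK228+YF (adjusted p = 0.0278, edgeR). That call ended without control replicate 1 (0.16), control replicate 3 (0.15) or FK228+YF replicate 3 (0.18). With FK228 alone Cpt1a did not pass (0.12 ± 0.09) but did without control replicate 2 (0.24) or FK228 replicate 1 (0.21). Cpt2, which remakes acyl-CoA in the matrix, stood at 30 ± 1.71 CPM with FK228, 30 ± 0.918 with YF, 29 ± 2.12 with FK228+YF and 32.2 ± 1.08 in control. It passed no test against control. The interval of its change reached from -0.24 to 0.04 for FK228, from -0.24 to 0.04 for YF and from -0.29 to -0.01 for FK228+YF. Without control replicate 1 (-0.18) or FK228+YF replicate 3 (-0.19) it was called lower with FK228+YF.

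The 4 acyl-CoA dehydrogenases, which take the first oxidative step for chains of different length, did not move together. Acadvl, for very long chains, stood at 145, 139 and 146 CPM with FK228, at 114, 105 and 110 with YF, at 169, 155 and 166 with FK228+YF, and at 99.3, 117 and 113 in control. All 6 libraries with FK228 were above all 6 without it. It rose by 0.39 ± 0.06 with FK228 and 0.57 ± 0.06 with FK228+YF (adjusted p = 1.23e-05 and 3.28e-08, edgeR), and was 0.00 ± 0.06 with YF. Acadm, for medium chains, on chromosome 3 from 153922353 to 153944643, stood at 94.7, 96.4 and 103 CPM with FK228, at 115, 112 and 115 with YF, at 98.4, 92.5 and 94.2 with FK228+YF, and at 125, 138 and 123 in control. All 9 treated libraries were below the 3 control libraries. It was lower, with log2 fold changes of -0.40 ± 0.06 with FK228, -0.18 ± 0.06 with YF and -0.44 ± 0.06 with FK228+YF (adjusted p = 2.74e-06, 0.0204 and 4.29e-07, edgeR). Acadl, for long chains, was higher with FK228 alone, at 309 ± 3.84 CPM, against 261 ± 12.2 in control (0.24 ± 0.05, adjusted p = 0.000593). Acads, for short chains, was higher there too, at 109 ± 2.94 CPM against 94.3 ± 5.89 in control (0.21 ± 0.07, adjusted p = 0.00821, edgeR). In TPM the libraries with FK228 alone overlapped control for both Acadl and Acads. With FK228+YF both were close to control, Acadl at 261 ± 4.1 CPM with an interval of its change from -0.11 to 0.11 and Acads at 94.3 ± 3.68 CPM with one from -0.13 to 0.13.

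The 2 subunits of the mitochondrial trifunctional protein rose together, most in the combination. Hadha (chromosome 5 from 30119423 to 30154980, minus strand) encodes the hydratase and long-chain dehydrogenase subunit, and Hadhb (chromosome 5 from 30155253 to 30184593, plus strand) the thiolase subunit. The genes lie head to head, with 272 bases between their RefSeq start sites, so that 228 bases of their 250-base upstream windows are the same. Hadha stood at 185, 201 and 214 CPM with FK228, at 184, 171 and 179 with YF, at 297, 288 and 297 with FK228+YF, and at 168, 177 and 165 in control. Hadhb stood at 92.3, 99.4 and 101 CPM with FK228, at 93.4, 90.4 and 90 with YF, at 155, 147 and 150 with FK228+YF, and at 77.3, 84 and 81.3 in control. For both genes every FK228+YF library lay far above every other library, and on this CPM scale the FK228 libraries lay above control. In TPM the FK228 libraries overlapped control for both. Hadha was 73, 84.6 and 98.7 TPM with FK228 and 77.5, 82 and 72.6 in control. Hadhb was 49.6, 57.1 and 63.8 TPM with FK228 and 48.6, 53 and 48.4 in control.

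Hadha rose by 0.23 ± 0.06 with FK228 and 0.79 ± 0.06 with FK228+YF (adjusted p = 0.00126 and 5.73e-11, edgeR), and was 0.07 ± 0.06 with YF (0.416). Hadhb rose by 0.27 ± 0.06 with FK228, 0.17 ± 0.06 with YF and 0.90 ± 0.05 with FK228+YF (adjusted p = 0.000181, 0.0191 and 3.08e-12, edgeR). The ratio of their TPM stayed between 1.39 and 1.59 over the 12 libraries. Of the 100-base runs in Hadhb transcripts, 14.8% are shared with Gm13910, so part of its count could belong to that gene. The short-chain dehydrogenase Hadh stood at 113, 113 and 107 CPM with FK228, at 88.8, 83.4 and 85.6 with YF, at 126, 132 and 133 with FK228+YF, and at 84.2, 96 and 92.3 in control. Its libraries with FK228 were above all others. It rose by 0.29 ± 0.06 with FK228 and 0.52 ± 0.06 with FK228+YF (adjusted p = 0.000151 and 3.78e-08, edgeR). Acaa2, the mitochondrial thiolase for medium chains, averaged 43.4 ± 0.876 CPM with FK228, 40.1 ± 0.902 with YF, 54 ± 2.54 with FK228+YF and 34.1 ± 2.53 in control. It rose in each, by 0.35 ± 0.07, 0.24 ± 0.07 and 0.66 ± 0.06 (adjusted p = 8.12e-05, 0.00832 and 6.09e-09, edgeR).

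Echs1, the short-chain enoyl-CoA hydratase of the same spiral, went the other way. It lies on chromosome 7 from 140105710 to 140116421. Its level was 76.6, 78.9 and 72.2 CPM with FK228, 128, 135 and 132 with YF, 61.9, 61.4 and 56 with FK228+YF, and 138, 131 and 139 in control. The 6 libraries with FK228 were below all 6 without, and YF overlapped control. Echs1 fell, the log2 fold changes being -0.84 ± 0.06 with FK228 and -1.19 ± 0.06 with FK228+YF (adjusted p = 3.37e-11 and 6.56e-14, edgeR), and was -0.05 ± 0.06 with YF. In TPM, where genes can be set side by side, Echs1 averaged 62 ± 3.48 with FK228, 121 ± 0.543 with YF, 50.8 ± 2.78 with FK228+YF and 119 ± 3.43 in control. The TPM of Hadha was 85.4 ± 12.8, 85.6 ± 5.35, 130 ± 1.57 and 77.4 ± 4.68 in the same groups, so that Echs1 was below Hadha in both groups with FK228 and above it in the others.

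**Figure D3:**
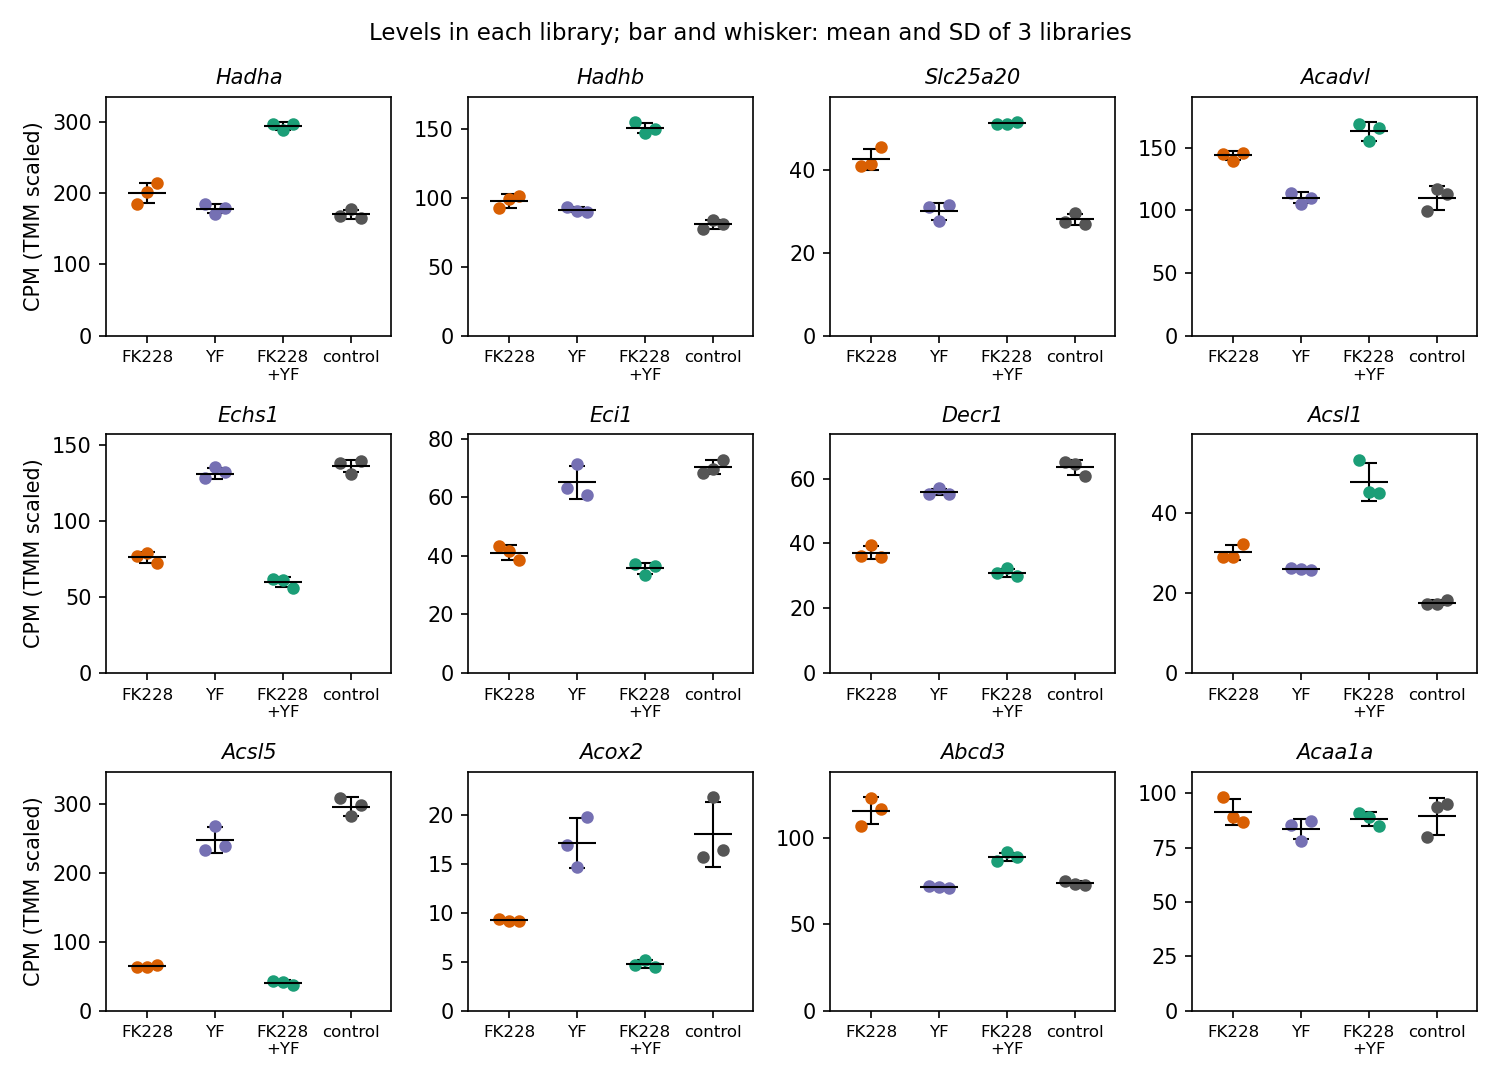
CPM (TMM scaled) of 12 genes in each of the 12 libraries (points), with the mean and SD of the 3 libraries of a group; axes start at 0 and differ between genes. Hadha and Hadhb are highest in the 3 FK228+YF libraries, Echs1, Eci1, Decr1, Acsl5 and Acox2 are low in the 6 libraries with FK228, and Acaa1a overlaps in all groups.

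Electrons from the dehydrogenases pass to the flavoprotein encoded by Etfa and Etfb and from it to the oxidoreductase encoded by Etfdh. Etfdh, on chromosome 3 from 79603788 to 79628767, stood at 83.7, 91.4 and 90.7 CPM with FK228, at 80.9, 77.3 and 72.8 with YF, at 88.3, 87.4 and 86.2 with FK228+YF, and at 65.6, 64 and 62.3 in control. All 9 treated libraries were above control, and the FK228+YF libraries lay within the range of FK228 alone. It rose by 0.47 ± 0.06 with FK228, 0.27 ± 0.06 with YF and 0.45 ± 0.06 with FK228+YF (adjusted p = 2.87e-07, 0.00112 and 3.37e-07, edgeR). Etfa averaged 203 ± 4.27 CPM with FK228, 156 ± 8.33 with YF, 200 ± 4.36 with FK228+YF and 163 ± 5.91 in control. It rose by 0.31 ± 0.05 with FK228 and 0.29 ± 0.05 with FK228+YF (adjusted p = 2.99e-05 and 4.82e-05). Etfb averaged 146 ± 8.77 CPM with FK228, 134 ± 4.64 with YF, 176 ± 4.93 with FK228+YF and 127 ± 6.96 in control. It rose by 0.20 ± 0.06 and 0.47 ± 0.06 with FK228 and FK228+YF (adjusted p = 0.00456 and 2.35e-07). Its count is uncertain, since 35.8% of its 100-base runs also occur in Gm45233.

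The auxiliary mitochondrial enzymes for unsaturated chains fell. Eci1, an enoyl-CoA isomerase on chromosome 17 from 24426683 to 24439316, stood at 43.3, 41.5 and 38.6 CPM with FK228, at 63.1, 71.3 and 60.6 with YF, at 37.1, 33.6 and 36.5 with FK228+YF, and at 68.3, 69.5 and 72.8 in control. Decr1, a dienoyl-CoA reductase on chromosome 4 from 15917240 to 15945377, stood at 36.1, 39.6 and 35.9 CPM with FK228, at 55.3, 57 and 55.2 with YF, at 30.8, 32.3 and 29.9 with FK228+YF, and at 65.2, 64.6 and 60.8 in control. For both genes the 6 libraries with FK228 were below the 6 without. Eci1 fell, to log2 fold changes of -0.77 ± 0.07 with FK228 and -0.97 ± 0.07 with FK228+YF (adjusted p = 2.81e-09 and 3.68e-11, edgeR). Decr1 was lower, with log2 fold changes of -0.77 ± 0.06 with FK228, -0.18 ± 0.06 with YF and -1.03 ± 0.06 with FK228+YF (adjusted p = 4.3e-10, 0.0209 and 2.14e-12, edgeR).

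Of the 2 ketone body genes among the members, Acat1 was called lower in every treated group. Bdh1 was too, but it passed the count filter only through control, and other settings ended its call under YF. Acat1, the mitochondrial acetoacetyl-CoA thiolase, stood at 147, 148 and 138 CPM with FK228, at 144, 156 and 146 with YF, at 135, 130 and 120 with FK228+YF, and at 174, 189 and 178 in control. All 9 treated libraries were below control. It fell, the log2 fold changes being -0.32 ± 0.06 with FK228, -0.27 ± 0.06 with YF and -0.49 ± 0.06 with FK228+YF (adjusted p = 5.18e-05, 0.00103 and 1.31e-07, edgeR). Bdh1, which makes 3-hydroxybutyrate, was close to the limit of detection, with 3, 7 and 5 counts with FK228, 8, 8 and 10 with YF, 2, 1 and 4 with FK228+YF, and 18, 31 and 11 in control. No treated library reached the lowest control library. The count filter kept Bdh1 only because of the control libraries, the group where it was highest. That selection favours a lower call against control, so the calls of Bdh1 are description only. The summed counts, scaled to library size, gave ratios to control of 0.255 (95% exact interval 0.134 to 0.455) with FK228, 0.448 (0.271 to 0.721) with YF and 0.126 (0.0485 to 0.275) with FK228+YF. The intervals cover counting error only, not the spread between libraries. With YF the fitted log2 fold change of Bdh1 was -1.20 ± 0.43 (adjusted p = 0.0368, edgeR). That call ended with no count filter (-1.21), DESeq2 (-1.22), limma-voom (-1.05) or the replicate number as a block (-1.17), without control replicate 2 (-0.74) and without any 1 of the YF libraries.

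Genes of ketone body making, use and transport were also read as a list of 10, with 9 tested, that holds none of the 35. With FK228 5 of them were higher and 3 lower, with YF 3 and 1, and with FK228+YF 5 and 3. Shares of all genes called higher and lower were 33.2% and 35.5% with FK228, 18% and 14.6% with YF, and 38.8% and 38.6% with FK228+YF. The 3 genes described next were all higher and do not stand for the list, whose lower genes are not described here. Oxct1, which uses ketone bodies and is little expressed in normal liver, averaged 77.9 ± 3.72 CPM with FK228, 68 ± 5.89 with YF, 101 ± 6.34 with FK228+YF and 41.6 ± 2.04 in control. It rose by 0.91 ± 0.07, 0.71 ± 0.07 and 1.27 ± 0.07. Bdh2, a cytosolic dehydrogenase, rose by 1.57 ± 0.16, 1.21 ± 0.16 and 2.02 ± 0.16, and the monocarboxylate carrier gene Slc16a6 by 1.74 ± 0.10, 2.13 ± 0.10 and 2.11 ± 0.10, in the same order of groups.

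Thioesterases free fatty acids from coenzyme A, and the 3 among the members did not move together. Acot2, the mitochondrial one, stood at 3.02, 3.32 and 3.1 CPM with FK228, at 4.5, 3.2 and 3.58 with YF, at 1.92, 1.9 and 2.22 with FK228+YF, and at 4.92, 7.94 and 7.39 in control. All treated libraries were below control. It was lower, with log2 fold changes of -1.10 ± 0.18 with FK228, -0.84 ± 0.17 with YF and -1.74 ± 0.19 with FK228+YF (adjusted p = 1.32e-05, 0.000758 and 3.21e-08, edgeR). Acot1, its cytosolic neighbour on chromosome 12, averaged 135 ± 6.64 CPM with FK228, 111 ± 11.4 with YF, 91.8 ± 4.32 with FK228+YF and 142 ± 17.1 in control. It fell with YF (-0.36 ± 0.08) and with FK228+YF (-0.63 ± 0.08), while its change with FK228 was -0.08 ± 0.08. The 2 genes share sequence, 17.1% of the 100-base runs of Acot2 being also in Acot1 and 9.32% of those of Acot1 in Acot2. With Acot1 at 120 ± 15.4 TPM and Acot2 at 3.85 ± 0.906 TPM in control, the Acot2 count is uncertain.

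Among the 10 peroxisomal members the largest change was in Acox2, the oxidase of branched chains and bile acid intermediates, on chromosome 14 from 8225511 to 8259019. It stood at 9.34, 9.14 and 9.13 CPM with FK228, at 16.9, 14.7 and 19.8 with YF, at 4.63, 5.21 and 4.49 with FK228+YF, and at 15.7, 21.8 and 16.4 in control. The 6 libraries with FK228 were below the 6 without, and the combination was lowest. Acox2 fell, the log2 fold changes being -0.97 ± 0.13 with FK228 and -1.91 ± 0.14 with FK228+YF (adjusted p = 9.1e-07 and 5.09e-11, edgeR), and was -0.07 ± 0.12 with YF. Abcd3, the importer of branched and bile acid precursors in the peroxisomal membrane, on chromosome 3 from 121758904 to 121815302, stood at 107, 123 and 117 CPM with FK228, at 72.2, 71.4 and 71.2 with YF, at 86.6, 91.7 and 89 with FK228+YF, and at 74.9, 73.6 and 72.8 in control. FK228 alone gave the highest libraries and the combination the next. It rose by 0.65 ± 0.06 with FK228 and 0.27 ± 0.06 with FK228+YF (adjusted p = 1.78e-09 and 0.000172, edgeR). In FK228+YF against FK228 it was lower, at -0.38 ± 0.06 (adjusted p = 9.64e-06).

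The core of the peroxisomal spiral did not pass the test in any comparison. Ehhadh and Hsd17b4, bifunctional enzymes that hydrate and dehydrogenate, and the thiolase Acaa1a were called in none of the 3 comparisons with control. Acaa1a stood at 98.3, 89.2 and 86.8 CPM with FK228, at 85.4, 78.2 and 87.2 with YF, at 91, 89 and 84.8 with FK228+YF, and at 79.8, 93.6 and 95.2 in control, with overlapping groups. The interval of its change was -0.10 to 0.17 for FK228, -0.23 to 0.04 for YF and -0.16 to 0.12 for FK228+YF. For Hsd17b4, at 106 ± 5.33, 107 ± 1.63 and 110 ± 0.828 CPM in those groups and 112 ± 0.489 in control, the 3 intervals lay between -0.18 and 0.08. For Ehhadh, at 5.5 ± 0.264, 6.17 ± 0.828 and 6.26 ± 0.534 CPM against 5.64 ± 0.359 in control, they were wider and lay between -0.29 and 0.41. Of the 100-base runs of Acaa1a, 7.21% also occur in Acaa1b, which had log2 fold changes of -0.94 ± 0.08 with FK228 and -1.46 ± 0.08 with FK228+YF.

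Among the other peroxisomal members, called changes went in both directions. Eci2, an isomerase for unsaturated chains, averaged 76.7 ± 1.1 CPM with FK228, 86 ± 1.68 with YF, 64 ± 2.45 with FK228+YF and 100 ± 8 in control. It fell, to log2 fold changes of -0.38 ± 0.06, -0.22 ± 0.06 and -0.65 ± 0.06 (adjusted p = 7.79e-06, 0.00653 and 2.66e-09, edgeR). Decr2, the peroxisomal dienoyl-CoA reductase, rose by 0.38 ± 0.09 with FK228 (adjusted p = 0.000931, edgeR), at 18.9 ± 0.876 CPM against 14.5 ± 1.51 in control. With FK228+YF Decr2 stood at 16.9 ± 1.39 CPM (0.22 ± 0.09, adjusted p = 0.0341, overlapping control). It lost the call with no count filter (0.20), with the compared groups fitted alone (0.23), and without control replicate 1 (0.14), control replicate 2 (0.23), FK228+YF replicate 1 (0.20) or FK228+YF replicate 3 (0.17). Acox3, a second branched-chain oxidase, was lower with FK228 (-0.27 ± 0.08) and higher with YF (0.24 ± 0.07), and stood at 44.4 ± 2.7 CPM with FK228+YF and 43.2 ± 2.13 in control. The thioesterase Acot8 rose by 0.35 ± 0.11 with FK228 and 0.58 ± 0.10 with FK228+YF. Crot, which makes acylcarnitines for export, fell with FK228+YF, at a log2 fold change of -0.52 ± 0.08. With FK228 alone Crot was -0.24 ± 0.08 (adjusted p = 0.0102) and overlapped control. It lost that call without control replicate 2 (-0.16) or FK228 replicate 2 (-0.18).

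Set side by side, mitochondrial members were called more often than peroxisomal ones with FK228, and the difference between the 2 sets was not tested. Oxidation genes outside the members, given below, did not repeat it with FK228. There 60% of the mitochondrial genes were called (median 0.06) and 64.7% of the peroxisomal ones (median 0.27). With FK228+YF those shares were 92% (median -0.19) and 64.7% (median 0.03). With FK228, 11 of 20 mitochondrial members were higher and 7 lower, with a median of 0.20, and 3 of 10 peroxisomal members were higher and 4 lower, with a median of -0.06. With FK228+YF the counts were 10 higher and 7 lower with a median of 0.11 in mitochondria, and 3 and 3 with a median of 0.01 in peroxisomes. With YF they were 3 and 5 (median -0.07), and 1 and 1 (median -0.06). The shares of all genes given above are the scale for these counts. The summed TPM of the mitochondrial members was 1371 ± 115 with FK228, 1452 ± 30 with YF, 1513 ± 17.4 with FK228+YF and 1399 ± 63 in control, and that of the peroxisomal members was 275 ± 21.4, 303 ± 13, 264 ± 4.64 and 306 ± 19. The quotient of the 2 sums was 4.92, 5.04 and 4.99 with FK228, 4.7, 4.92 and 4.75 with YF, 5.68, 5.71 and 5.84 with FK228+YF, and 4.71, 4.48 and 4.55 in control. Both groups with FK228 were above control without overlap, the combination by the most, and YF touched the control range. Single genes weighed heavily in these sums. Etfb, whose count is uncertain, averaged 275 ± 10.8 TPM with FK228+YF and 204 ± 7.32 in control. Echs1 fell within the same sum, at 50.8 ± 2.78 against 119 ± 3.43, and among peroxisomal members Eci2 stood at 50.6 ± 1.47 against 82.7 ± 6.82. With FK228 alone the mitochondrial sum overlapped control.

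**Figure D4:**
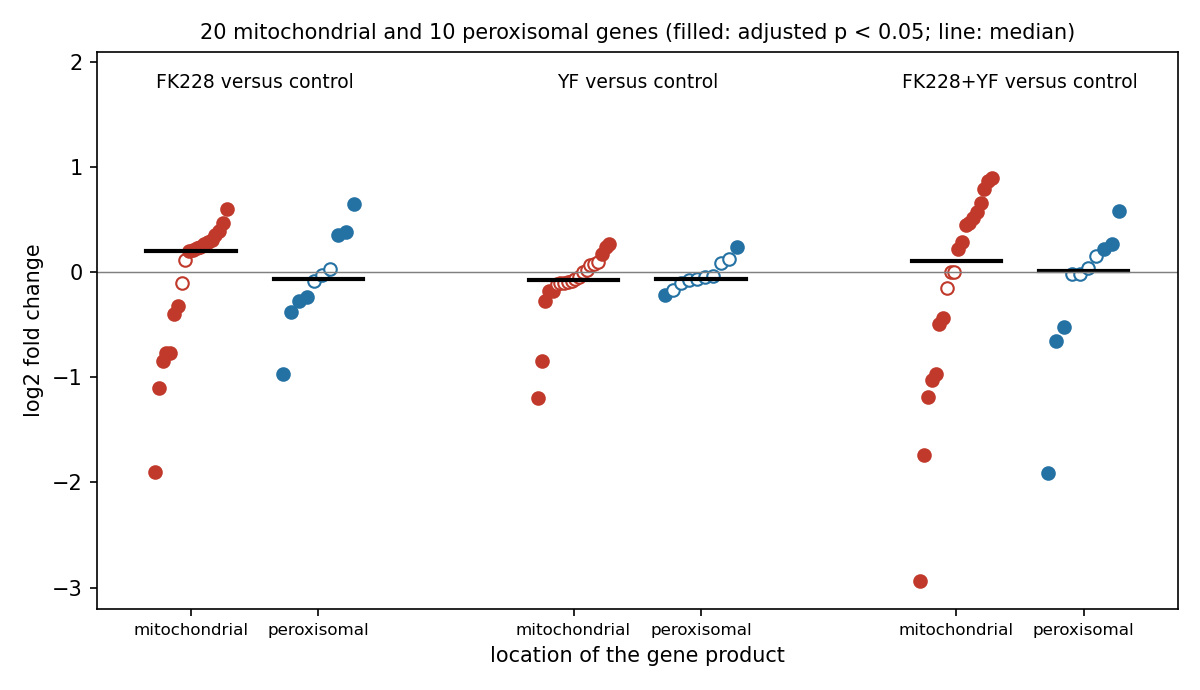
Log2 fold change of the 20 mitochondrial and the 10 peroxisomal members in FK228, YF and FK228+YF against control; each point is 1 gene, filled where the adjusted p was under 0.05 in edgeR, and the line is the median. The FK228+YF values of mitochondrial members reach from -2.94 (Bdh1) to 0.90 (Hadhb), and those of peroxisomal members from -1.91 (Acox2) to 0.58 (Acot8).

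Lists of related genes that hold none of the 35 also had called members in both directions. Of 25 other mitochondrial oxidation genes, 7 were higher and 8 lower with FK228, 2 and 3 with YF, and 11 and 12 with FK228+YF. Ech1, an isomerase for unsaturated chains that had one of the largest changes of this list, averaged 94.9 ± 3.54 CPM with FK228, 139 ± 5.06 with YF, 68.2 ± 1.71 with FK228+YF and 174 ± 12.9 in control. It fell like the members Eci1 and Decr1, with log2 fold changes of -0.87 ± 0.06, -0.32 ± 0.06 and -1.35 ± 0.06. Of 17 tested peroxisomal genes outside the members, 9 were higher and 2 lower with FK228, 6 and 2 with YF, and 7 and 4 with FK228+YF. Abcd2, an importer of very long chains, had 102 counts with FK228, 81 with YF and 373 with FK228+YF against 2 in control, as sums of 3 libraries. Scaled to library size these are ratios of 52 (95% exact interval 14 to 435), 41.9 (11.2 to 352) and 201 (55.2 to 1665), for counting error only.

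Of 22 peroxisome biogenesis genes, 8 were higher and 7 lower with FK228, 1 and 2 with YF, and 10 and 7 with FK228+YF. Pex7, the import receptor for the second peroxisomal targeting signal, rose by 0.68 with FK228 and 0.76 with FK228+YF. Of 31 mitochondrial import and citrate cycle genes, 16 were higher and 7 lower with FK228, 5 and 3 with YF, and 19 and 6 with FK228+YF. Mdh2, malate dehydrogenase, rose by 0.75 with FK228 and 1.07 with FK228+YF, and Suclg1, a subunit of succinyl-CoA ligase, by 0.75 and 0.81. Of 21 tested PPAR and PGC1 regulators and targets, 9 were higher and 6 lower with FK228, 3 and 2 with YF, and 8 and 8 with FK228+YF. Ppara, the receptor that drives these genes in liver, rose by 1.10 ± 0.26 with FK228 and 1.34 ± 0.25 with FK228+YF, at a low level of 0.67 ± 0.182 and 0.747 ± 0.206 TPM against 0.29 ± 0.0721 TPM in control. Pparg was lower, with log2 fold changes of -1.17 ± 0.20, -0.60 ± 0.19 and -2.10 ± 0.22 in FK228, YF and FK228+YF.

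Hepatocyte markers moved in the same libraries. Of 15 tested, 4 were higher and 9 lower with FK228, 4 and 5 with YF, and 3 and 11 with FK228+YF. The summed level of the 20 listed was 3291 to 3535 CPM with FK228, 3511 to 3580 with YF, 2140 to 2593 with FK228+YF and 3773 to 4021 in control. Hnf4a fell, the log2 fold changes being -1.81 ± 0.06, -0.55 ± 0.06 and -2.63 ± 0.07. Ass1 went the other way, at 38.8 ± 4.83 CPM with FK228, 52.6 ± 5.25 with YF, 34 ± 2.48 with FK228+YF and 11.8 ± 1.54 in control. Of 6 tested cholangiocyte and progenitor markers, 3, 3 and 4 were lower in the 3 comparisons and 1, 1 and 0 higher, with summed levels of 5665 to 6066 CPM with FK228, 5579 to 5794 with YF, 4451 to 5262 with FK228+YF and 5103 to 5162 in control. All 7 endothelial markers stayed under 1 CPM on average, with sums of 0.404 to 0.909, 0.381 to 0.672 and 0.667 to 1.66 CPM in the treated groups and 0.116 to 0.232 in control. Of the 4 tested stellate and mesenchymal markers 3 were higher with FK228, 1 with YF and 3 with FK228+YF, and 0, 1 and 0 were lower. Vim was the 1 lower with YF (-0.24). Of the 11 listed stellate and mesenchymal markers, 8 averaged under 1 CPM in each group. Their sums were 686 to 755 CPM with FK228, 461 to 464 with YF, 601 to 626 with FK228+YF and 511 to 550 in control. Of the 6 tested leukocyte and macrophage markers 4, 2 and 3 were higher and 1, 1 and 1 lower, with sums of 48.4 to 53.2, 108 to 131 and 61.4 to 72 CPM in the treated groups and 136 to 182 in control. Single genes carried much of these sums. In control, Cd14 stood at 154 ± 23 CPM, Spp1 at 4179 ± 128, Vim at 528 ± 21.6, Krt8 at 1415 ± 63 and Krt18 at 1283 ± 66.1. Cd14 stood at 21.2 ± 1.9 CPM with FK228, 111 ± 11.4 with YF and 10.4 ± 1.85 with FK228+YF. Cd68 rose in those groups, to 22.8 ± 3.43, 6.84 ± 0.682 and 49.8 ± 4.72 CPM from 2.53 ± 0.391 in control. In bulk RNA fewer cells of a type and less RNA per cell cannot be told apart, and the part of these markers in the results above was not tested.

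With YF alone the effects were small, and the calls of several members rested on single libraries. Of its 13 calls, 6 ended when 1 library was left out. Hadhb ended without control replicate 1 (0.14) or YF replicate 1 (0.16). Acox3 ended without control replicate 3 (0.21), YF replicate 1 (0.20) or YF replicate 3 (0.24). Acadm ended with the compared groups fitted alone (-0.16) and without control replicate 2 (-0.12), YF replicate 2 (-0.16) or YF replicate 3 (-0.18), and Eci2 without control replicate 2 (-0.16). Decr1 ended without control replicate 1 (-0.17) or control replicate 2 (-0.17), and likewise without YF replicate 1 (-0.18) or YF replicate 3 (-0.17). Bdh1 ended without control replicate 2, as given above, or without YF replicate 1 (-1.16), YF replicate 2 (-1.14) or YF replicate 3 (-1.30). Without control replicate 1, on the other hand, Acaa1a (-0.18), Decr2 (-0.25) and Acsl3 (0.31) gained a call with YF. The calls of Acsl1, Etfdh, Acaa2, Acat1, Acot1, Acot2 and Acsl5 with YF held with each library left out.

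FK228 could be compared with and without YF in libraries that are not shared, FK228 against control and FK228+YF against YF. In YF cells, 15 members were higher with FK228 and 14 lower, against 34.7% and 35.9% of all genes and 70.6% in either direction. Of the 35 members, 14 were higher in both comparisons, 13 lower in both, 0 moved in opposite directions, 2 were called only without YF, 2 only with YF and 4 in neither. Over all genes tested 25.8% were higher in both, 28.7% lower in both and 1.99% opposite. Acadl and Acads were the 2 called only without YF, and Cpt1a and Acot1 the 2 called only with it. Acadl was called in YF cells too with DESeq2 (0.12) and with a filter of 5 CPM in 3 libraries (0.13). Cpt1a lost its call in YF cells (0.20 ± 0.09) with no count filter (0.19) and with the replicate number as a block (0.20). It also lost it without YF replicate 2 (0.16), YF replicate 3 (0.20), FK228+YF replicate 1 (0.21) or FK228+YF replicate 3 (0.16). Acox3 (-0.20 ± 0.07) lost its call in YF cells without YF replicate 1 (-0.17) or FK228+YF replicate 2 (-0.15), and also with DESeq2 (-0.17) and the 5 CPM filter (-0.17). Bdh1 (-1.74 ± 0.64) lost its call there without YF replicate 3 (-1.64), FK228+YF replicate 1 (-1.65) or FK228+YF replicate 2 (-1.37). Whether the effect differed was tested by the interaction, which called 3 members higher and 5 lower, against 11.1% and 15.3% of all genes and 26.5% in either direction.

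The interaction was positive for Hadha (0.49 ± 0.08, adjusted p = 0.000158, edgeR), Hadhb (0.45 ± 0.08, 0.000233) and Hadh (0.31 ± 0.08, 0.00698). FK228 raised Hadha by 0.72 ± 0.06 in YF cells, against 0.23 ± 0.06 without YF, and Hadhb by 0.72 ± 0.05 against 0.27 ± 0.06. It was negative for Acox2 (-0.87 ± 0.19, adjusted p = 0.00179), Acsl5 (-0.40 ± 0.09, 0.00334), Abcd3 (-0.33 ± 0.08, 0.00394), Echs1 (-0.29 ± 0.08, 0.0104) and Etfdh (-0.29 ± 0.08, 0.0112). For Acox2 the fall with FK228 was -1.84 ± 0.14 in YF cells and -0.97 ± 0.13 without YF, and for Acsl5 it was -2.61 ± 0.07 and -2.20 ± 0.07. For Abcd3 and Etfdh the rise with FK228 was smaller in YF cells, 0.32 ± 0.06 against 0.65 ± 0.06 for Abcd3 and 0.18 ± 0.06 against 0.47 ± 0.06 for Etfdh. The call of Etfdh in FK228+YF versus YF ended without YF replicate 3 (0.14). Acadvl (0.25) and Etfb (0.23) gained an interaction call without control replicate 1, and Crot (-0.32) without control replicate 2.

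**Figure D5:**
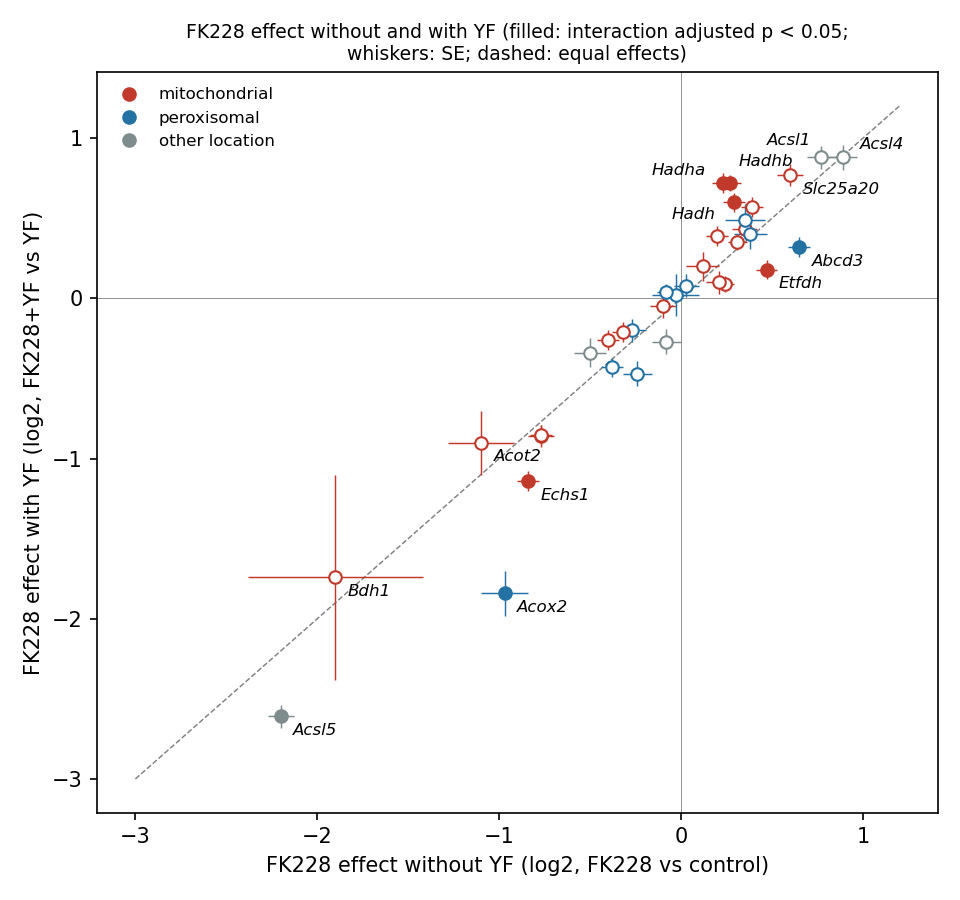
Log2 effect of FK228 without YF (FK228 against control, x axis) and with YF (FK228+YF against YF, y axis) for the 35 genes; whiskers are SEs, the dashed line marks equal effects, and filled points passed the interaction test. Hadha, Hadhb and Hadh lie above the line, and Abcd3, Etfdh, Echs1, Acox2 and Acsl5 below it.

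Adding YF to FK228 changed many members as well. In FK228+YF against FK228, 10 were higher and 13 lower, against 26.6% and 26.3% of all genes and 52.9% in either direction. Of the mitochondrial members 7 were higher and 7 lower, and of the peroxisomal members 1 was higher (Acox3, 0.31 ± 0.08) and 4 lower. Acsl1 (0.67 ± 0.07), Hadhb (0.62 ± 0.05) and Hadha (0.56 ± 0.06) rose most among those higher, and Acox2 (-0.95 ± 0.15), Acsl5 (-0.67 ± 0.07), Acot2 (-0.64 ± 0.21) and Acot1 (-0.55 ± 0.08) fell most. Acadl (-0.24 ± 0.05) and Acads (-0.21 ± 0.07) were lower with FK228+YF than with FK228 alone. The calls of Acadvl (0.18 ± 0.06), Eci1 (-0.20 ± 0.07) and Acat1 (-0.17 ± 0.06) in this comparison ended when 1 library was left out. For Acadvl these were FK228 replicate 2 (0.15), FK228+YF replicate 1 (0.16) or FK228+YF replicate 3 (0.17), for Eci1 FK228 replicate 1 (-0.18) or FK228+YF replicate 2 (-0.18), and for Acat1 FK228+YF replicate 3 (-0.12).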

How the data were processed

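Total RNA from 12 AML12 samples was sequenced on BGISEQ with paired reads, per the labels' protocols. The authors deposited expected counts for each gene, not scaled to library size, and TPM, scaled to transcript length and library size, both per the file headers. Listed in the submitters' processing notes, with no role or order, are DESeq2 1.4.5, RSEM 1.2.12, HISAT2 2.0.4, Bowtie2 2.2.5 and GRCm38.p6. The gene annotation, strand setting and filters were not stated there. A further 40 columns of per-sample values were not used.

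Estimated counts, of which 16.6% were not whole, were rounded. Libraries held 23664446 to 26122998 counts, and filterByExpr left 13346 of 19037 genes. A robust quasi-likelihood model with TMM factors was fitted to 12 libraries across all genes, with 1 term per group and Benjamini-Hochberg adjustment at 0.05 (edgeR 4.0.16, limma 3.58.1, R 4.3.3). The symbols of all 35 members matched RefSeq (GRCm38.p6). Replicates differed by more than sampling noise (mean chi-square 3.64 to 22.8 per gene over genes with 50 counts or more). Same-numbered libraries did not deviate together (correlations -0.215 to 0.0887), so the numbers were not treated as pairs. On simulated counts of 12504 genes, FK228 versus control recovered 85.1%, 97% and 100% of the genes given log2 folds of 0.5, 1 and 2, with 6 false calls. The simulation changed only 67, 67 and 66 genes at those folds and gave YF no effect, whereas 68.8% of genes were called in the data. It therefore does not measure false calls where most genes change or where replicates are technical.

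The members and gene lists were chosen with earlier results of these data known. All members are named, and of other lists at most 4 called genes with a mean of 1 CPM or more and the largest fold changes against control. A few genes that this rule names are not reported here. Locations and roles are textbook assignments. Printed promoters were cut to the longest stretch outside the UTRs of GENCODE M21. Alternatives were RLE size factors, no count filter, 5 CPM in 3 libraries, DESeq2 1.42.0, limma-voom, the compared groups alone, the replicate number as a block, Eci2 in neither location, and leaving out each library.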

Additional observations from a re-analysis of the deposited data

Results flagged for a closer look

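The effect of FK228 differed with and without YF in 8 members by edgeR's interaction test, and no cause was tested. Hadha had an interaction of 0.49 on the log2 scale, with a rise of 0.72 in YF cells and 0.23 without YF. Hadhb had 0.45, with rises of 0.72 and 0.27, and Hadh had 0.31, with rises of 0.60 and 0.29. Echs1 had -0.29, with falls of -1.14 in YF cells and -0.84 without YF. Acox2 had -0.87, with falls of -1.84 and -0.97, and Acsl5 had -0.40, with falls of -2.61 and -2.20. Abcd3 had -0.33, with rises of 0.32 in YF cells and 0.65 without YF, and Etfdh had -0.29, with rises of 0.18 and 0.47.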

How the results depend on the processing

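Over 19 alternatives, 12 of which leave out 1 library, 3941 fold changes of members were compared: 3872 kept their call, 53 lost it, 16 gained one and 0 called values reversed. Of the calls lost, 42 went with a library left out. Among 72 uncalled values whose sign changed, the largest was 0.46. Of 702 counts, 684 stayed within 1.5 times. For YF versus control, mitochondrial members lower were 3 with the filter of 5 CPM in place of 5, Bdh1 and Acot2 not passing that filter, and peroxisomal members lower were 0 in place of 1 with Eci2 in neither location. With the replicate number as a block, peroxisomal members higher in FK228+YF versus FK228 were 2 in place of 1 (Acot8 gained a call), and Bdh1 in YF versus control and Cpt1a in FK228+YF versus YF lost theirs. Same-numbered libraries did not correlate, so the block is not a paired design. With 1 library left out, YF versus control gave 3 to 5 members higher and 4 to 9 lower, 2 to 5 mitochondrial lower, 0 to 1 peroxisomal higher and 0 to 3 peroxisomal lower. Members lower were 4 without control replicate 2 and 5 without YF replicate 3, and members higher 3 without YF replicate 1. Mitochondrial members lower were 2 without control replicate 2 or YF replicate 3, and 3 without YF replicate 1 or 2. Peroxisomal members lower were 3 without control replicate 1 and 0 without control replicate 2, and higher 0 without control replicate 3, YF replicate 1 or YF replicate 3. FK228+YF versus FK228 gave 1 to 2 peroxisomal higher, the 2 without FK228+YF replicate 3. The interaction gave 3 to 5 members higher, all mitochondrial, the 5 without control replicate 1. Bdh1 in YF versus control also lost its call with no count filter, DESeq2 and limma-voom (-1.21, -1.22 and -1.05), and the cause was not tested. With 3 libraries a group, small changes such as those with YF sit near the threshold, and Bdh1 and Acot2 are limited by their counts.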
